A study of Mus musculus with 44 samples.

Results

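Dentate granule cells are the principal neurons of the dentate gyrus, the part of the hippocampal formation that takes input from the entorhinal cortex and passes it to CA3 through mossy fibres. Genes that mark these cells were followed in ribosome-bound mRNA (TRAP-seq) from the hippocampus of exercised and sedentary mice. The 8 genes were Prox1, C1ql2, Dsp, Tdo2, Lct, Trpc6, Plk5 and Pdzd2, found by symbol through the GENCODE annotation of GRCm38 among the 55335 genes counted. All 8 were present and passed the filter on low counts in each comparison. Prox1 was selected on its higher level after exercise in the simultaneously isolated libraries, and the other 7 were set beside it as markers of the same cell type, with earlier results of these data known. Values of the simultaneous comparison are therefore given as a description, with no test.

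There were 20 libraries, each from 1 male Emx1-NuTRAP mouse, the offspring of a female Emx1-IRES-Cre and a male NuTRAP parent. In these mice, Cre made from the Emx1 locus switches on a tag on ribosomes and a tag on the nuclear envelope, and every group carried both alleles. Mice of the early-life exercise (ELE) group were pair-housed with a free running wheel from postnatal day 21 to 41, and sedentary littermates were pair-housed without one; tissue was taken on the day after. In the SIT groups (4 ELE and 4 sedentary mice), both hippocampi went into 1 homogenate from which nuclei and ribosomes were isolated together. In the separately isolated groups, ribosomes came from 1 hippocampus, with 3 ELE and 3 sedentary mice for the left and another 3 and 3 for the right, so left and right are different mice. The hemisphere of each library follows the study's list of mouse numbers, and reading the columns in the order of the deposited sample records would exchange left and right, which also turns the sign of every left against right and interaction value. Emx1-Cre acts from development onward and marks excitatory neurons of every hippocampal field, and can also mark astrocytes, so granule cells make up an unknown share of each library. In such bulk samples, fewer granule cells and less of a transcript per granule cell cannot be told apart.

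As background, Prox1 is a homeobox transcription factor that granule cells need to take on and keep their identity, and it is also made by interneurons from the caudal ganglionic eminence and by lymphatic endothelium. C1ql2 is a secreted C1q-like protein at the synapses of mossy fibres. Dsp, desmoplakin, links desmosomes to intermediate filaments. Tdo2 is tryptophan 2,3-dioxygenase, the first enzyme of the kynurenine pathway, and Lct is lactase, known for the brush border of the gut. Trpc6 is a cation channel, Plk5 belongs to the polo-like kinase family, and Pdzd2 holds several PDZ domains, which bind the ends of other proteins.

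In GRCm38, 3 of the genes lie on chromosome 1: Prox1 (ENSMUSG00000010175.13) at chr1:190118035-190170714 on the minus strand, C1ql2 (ENSMUSG00000036907.9) at chr1:120340582-120343174 on the plus strand and Lct (ENSMUSG00000026354.8) at chr1:128284756-128328318 on the minus strand. Dsp (ENSMUSG00000054889.10) is at chr13:38151294-38198577 on the plus strand, Tdo2 (ENSMUSG00000028011.16) at chr3:81957090-81976202 on the minus strand and Trpc6 (ENSMUSG00000031997.9) at chr9:8544142-8680741 on the plus strand. Plk5 (ENSMUSG00000035486.14) is at chr10:80356459-80365489 on the plus strand and Pdzd2 (ENSMUSG00000022197.16) at chr15:12359711-12739924 on the minus strand. Counts cover the exons of each gene, from 2000 bases in C1ql2 to 18419 bases in Pdzd2.

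Basic helix-loop-helix factors, among them those that drive granule neuron differentiation, bind the E-box CANNTG. It was searched in the RefSeq promoters of the 8 genes (GRCm38.p6, 250 bases before to 50 bases after the start). The 4 promoters shown belong to Prox1, to C1ql2, which had the highest level, and to Plk5 and Pdzd2, which lay at opposite extremes in the libraries NT6.304 and TG9.1.4. Matches of CANNTG, which reads the same on both strands, are in capitals. The Prox1 promoter is the first of 2 entries for the gene, at chr1:190170778-190171077 on the minus strand. C1ql2 is at chr1:120340332-120340631 on the plus strand, Plk5 at chr10:80356209-80356508 on the plus strand and Pdzd2 at chr15:12739843-12740142 on the minus strand.
Prox1: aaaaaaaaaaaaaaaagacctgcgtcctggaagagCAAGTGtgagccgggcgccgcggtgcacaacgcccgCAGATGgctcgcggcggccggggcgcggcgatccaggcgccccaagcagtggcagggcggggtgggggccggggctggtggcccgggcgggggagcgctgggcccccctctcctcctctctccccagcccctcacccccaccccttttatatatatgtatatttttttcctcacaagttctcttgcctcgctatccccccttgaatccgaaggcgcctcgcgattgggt
C1ql2: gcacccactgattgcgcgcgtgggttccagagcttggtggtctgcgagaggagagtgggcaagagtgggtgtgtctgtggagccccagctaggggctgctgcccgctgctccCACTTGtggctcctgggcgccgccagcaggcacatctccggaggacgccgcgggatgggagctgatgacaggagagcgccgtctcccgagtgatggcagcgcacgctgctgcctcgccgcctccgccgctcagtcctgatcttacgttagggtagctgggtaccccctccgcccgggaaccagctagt
Plk5: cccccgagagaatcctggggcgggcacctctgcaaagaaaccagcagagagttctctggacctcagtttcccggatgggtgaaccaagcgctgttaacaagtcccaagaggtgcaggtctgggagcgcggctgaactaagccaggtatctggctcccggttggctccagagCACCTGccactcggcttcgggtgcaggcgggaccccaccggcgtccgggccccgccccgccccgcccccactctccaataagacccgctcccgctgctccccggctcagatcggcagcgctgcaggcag
Pdzd2: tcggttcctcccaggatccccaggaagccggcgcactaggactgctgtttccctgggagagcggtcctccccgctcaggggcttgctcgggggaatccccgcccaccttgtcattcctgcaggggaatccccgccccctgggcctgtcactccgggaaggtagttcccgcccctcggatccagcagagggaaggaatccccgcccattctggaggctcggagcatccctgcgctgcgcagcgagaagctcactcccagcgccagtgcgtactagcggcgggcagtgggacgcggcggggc

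The Prox1 promoter held 2 matches and the C1ql2 and Plk5 promoters 1 each, while the Pdzd2 promoter held none. Of the promoters not shown, Lct held 2, Dsp held 1, and Tdo2, Trpc6 and the second Prox1 entry held none. Among all 32851 promoters of 300 bases, 72.3% held at least 1 match and 39.6% at least 2, with a median of 1.

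Library depth ranged from 45895097 to 65767802 counts, around a median of 54422374. Several libraries stood apart, and 3 of them, all SIT, were left out by the study: NT6.304 (ELE), NT7.2.3 and NT7.2.4 (both sedentary). Mitochondrial genes took 8.64% and 9.64% of all counts in the libraries NT7.2.3 and NT7.2.4 and between 0.0704% and 0.523% in the others. In the same pair, 6 interneuron markers summed to 817 and 855 CPM (counts per 1000000 counts, TMM-scaled) and 5 microglial markers to 170 and 178 CPM. In the 16 libraries that do not stand apart, these sums were between 40.9 and 76.2 CPM and between 2.19 and 5.17 CPM. NT6.304 and the left ELE library TG9.1.4 differed in genes that neuronal activity is known to induce, which were chosen after their values were seen: Nptx2 was at 892 and 319 CPM in them and between 61.4 and 135 CPM in the other 18. The 12 further granule cell genes described below summed to 1216 and 1203 CPM in them and to between 1488 and 2177 CPM in the 16 libraries, and both were also above these libraries in summed CA2 and CA3 genes (444 and 469 against at most 435 CPM) and microglial markers (8.96 and 6.76 CPM). Genes of progenitors and immature neurons summed to 282 CPM in NT6.304 and 145 CPM in TG9.1.4, against at most 158 CPM, and striatal neuron genes to 132 and 77.0 CPM, against at most 72.6 CPM. The SIT comparison below used the 5 libraries that the study compared (3 ELE, 2 sedentary), and values over all 8 stand beside it. Mouse numbers are partly nested in the SIT groups: the TG7.4 mice were all ELE, the NT7.2 mice all sedentary, and the NT6 mice were in both groups, whereas each separately isolated group held 1 mouse each of TG7.3, TG9.1 and TG9.2.

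Granule cell markers were well represented, with each of the 8 genes above 3 counts in every library. Their summed level was between 462 and 721 CPM in the 16 libraries that do not stand apart, 612 CPM in NT6.304, 582 CPM in TG9.1.4, and lowest in NT7.2.3 and NT7.2.4 at 428 and 387 CPM. Per kilobase of exon, C1ql2 had the highest median level over the 20 libraries, 123 CPM per kb, and Prox1 followed at 17.6 CPM per kb. Their ranges did not overlap, and neither did those of Prox1 and the next gene. Plk5 at 8.42 and Lct at 7.16 CPM per kb could not be ordered, since Plk5 was the higher in 10 of 20 libraries. Lct exceeded Trpc6, at 2.55 CPM per kb, in 20 of 20 libraries. Below that, Trpc6, Dsp (2.21 CPM per kb), Pdzd2 (1.94 CPM per kb) and Tdo2 (0.987 CPM per kb) had ranges that overlapped from each gene to the next.

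The genes differed in how much they varied among libraries. The highest value of Trpc6 was 2.07 times the lowest, that of Prox1 2.27 times and that of C1ql2 2.64 times. For Lct the ratio was 2.99, for Pdzd2 6.19 and for Dsp 8.67. Plk5 and Tdo2 varied most, with ratios of 22.1 and 56.0, and both had their lowest values in NT6.304 and TG9.1.4.

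**Figure D1:**
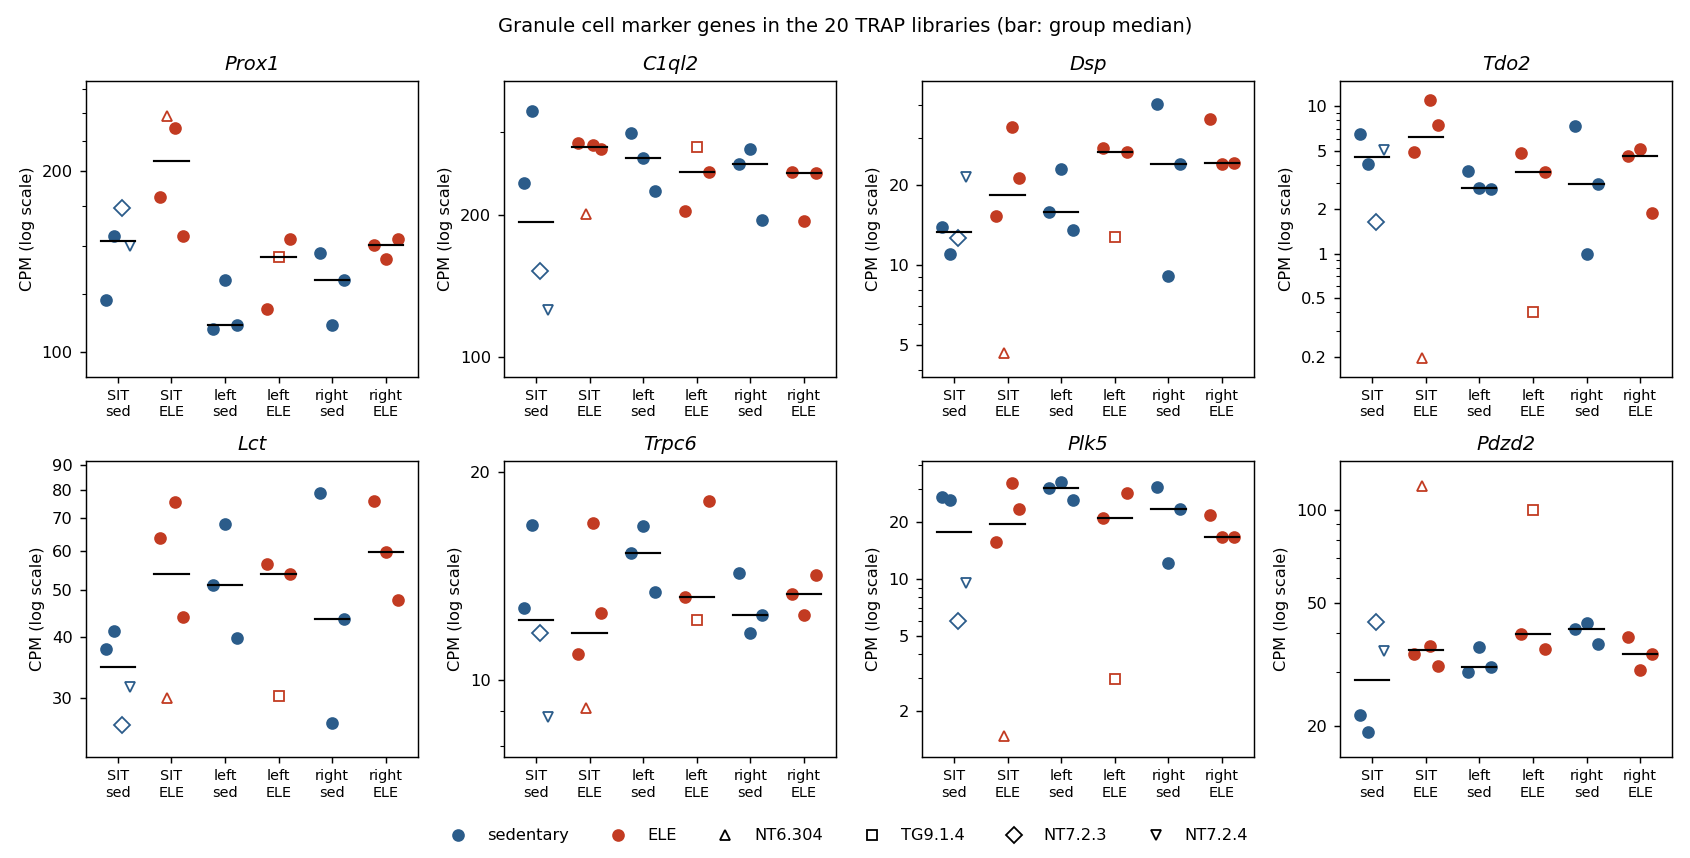
Level of each gene in CPM (vertical axis, log scale) in the 20 libraries by group, with a bar at the group median. Filled points are sedentary (blue) or ELE (red) mice and open symbols mark the 4 libraries that stand apart. Prox1 reached 247 CPM in NT6.304, where Plk5 was at 1.47 CPM and Tdo2 at 0.197 CPM.

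In the SIT comparison, the granule cell markers divided. Prox1, Dsp, Lct, Pdzd2 and Tdo2 were higher on average in ELE mice, with groups that overlapped for Tdo2. C1ql2, Trpc6 and Plk5 lay near or below the sedentary level. The thresholds of the call are the study's, an unadjusted p under 0.05 and a fold above 1.3, applied here to edgeR's quasi-likelihood test. By that measure 4 of the 8 genes lay past the threshold upward and 0 downward, where 3.73% of the 18238 genes tested lay past it in either direction, 1.57% upward and 2.17% downward. The rule that chose Prox1 used this comparison, and nothing is read from that count. The median log2 fold change was 0.51 over the 8 genes and 0.00 over all genes.

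Prox1 was at 181, 236 and 156 CPM in the ELE libraries NT6.303, TG7.4.1 and TG7.4.2, and at 122 and 156 CPM in the sedentary libraries NT6.305 and NT6.306. The group means were 191 ± 40.6 and 139 ± 23.9 CPM (SD, n = 3 and 2), a log2 fold change of 0.46 ± 0.169 (SE). The lowest ELE and the highest sedentary value were the same to 3 digits, and the groups were otherwise apart. For 10.4% of all genes the groups did not overlap upward in these libraries. With all 8 libraries, NT6.304 added the highest ELE value, 247 CPM, and NT7.2.3 and NT7.2.4 added 174 and 150 CPM to the sedentary group. The groups then overlapped, and the log2 fold change was 0.44 ± 0.167. Among the NT6 mice alone, the 2 ELE mice at 181 and 247 CPM were above the 2 sedentary mice at 122 and 156 CPM. The ELE mice were likewise above for 21.7% of all genes there. Prox1 no longer lay past the threshold with the mouse number as a block (0.38 ± 0.213), without TG7.4.1 (0.28) or without NT6.305 (0.29).

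C1ql2 did not move with Prox1. It was at 284, 281 and 276 CPM in the 3 ELE libraries compared and at 234 and 333 CPM in the sedentary pair, which enclosed them (log2 fold change -0.02 ± 0.132). Over all 8 libraries the log2 fold change was 0.30 ± 0.267, with C1ql2 at 152 and 126 CPM in NT7.2.3 and NT7.2.4, its lowest values of the 20.

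Dsp was at 15.3, 33.0 and 21.2 CPM in NT6.303, TG7.4.1 and TG7.4.2 and at 13.9 and 11 CPM in the sedentary pair (log2 fold change 0.89 ± 0.289). Its difference depended on which libraries entered. NT6.304 held 4.64 CPM and NT7.2.4 held 21.5 CPM, and over all 8 libraries the log2 fold change was 0.32 ± 0.460. Among the NT6 mice alone it was -0.33.

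Of the enzymes, Lct was at 63.7, 75.7 and 44.0 CPM in the ELE libraries and at 37.7 and 41.2 CPM in the sedentary pair (log2 fold change 0.63 ± 0.195). NT6.304 was low at 30 CPM, but NT7.2.3 and NT7.2.4 were low too, at 26.4 and 31.6 CPM, and the log2 fold change over all 8 was 0.64 ± 0.262. Tdo2 was at 4.87, 11 and 7.48 CPM in ELE and at 6.42 and 4.04 CPM in sedentary libraries, groups that overlapped (log2 fold change 0.57 ± 0.347, and 0.46 ± 0.782 over all 8). NT6.304 held only 10 counts of Tdo2.

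Trpc6 was at 10.9, 16.9 and 12.5 CPM in ELE and at 12.7 and 16.8 CPM in sedentary libraries, with overlapping groups (log2 fold change -0.13 ± 0.222, and -0.02 ± 0.243 over all 8). Plk5 was at 15.7, 32.1 and 23.5 CPM in ELE and at 27.2 and 26.1 CPM in sedentary libraries, again overlapping (log2 fold change -0.16 ± 0.247). Plk5 was lower in all 3 libraries left out, at 1.47, 6.00 and 9.47 CPM, and over all 8 its log2 fold change was 0.08 ± 0.716. Pdzd2 was at 34.1, 36.3 and 31.3 CPM in the ELE libraries and lower, at 21.7 and 19.2 CPM, in the sedentary pair (log2 fold change 0.73 ± 0.142). Of the libraries left out, NT6.304 was far higher at 119 CPM, while the sedentary NT7.2.3 and NT7.2.4 were at 43.4 and 34.9 CPM, within or above the ELE range (log2 fold change over all 8 of 0.88 ± 0.439).

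Over all 8 SIT libraries, 2 of the 8 genes lay past the threshold, Prox1 and Lct, where 7.84% of all genes did, 7 of the 8 were above 0, and their median log2 fold change was 0.38. Among the NT6 mice 2 of the 8 did, Prox1 and Pdzd2, where 6.74% of all genes did, and the median log2 fold change of the 8 genes was -0.28. These counts share the libraries that selected Prox1, and nothing is read from them either. Markers of other cells also differed in the 5 libraries, where 3.73% of all genes lay past the threshold. All 4 hemoglobin genes were lower in ELE mice past it, as were 3 of 5 choroid plexus genes and the interneuron marker Pvalb. Summed hemoglobin was between 3.89 and 12.1 CPM in the 4 ELE libraries and between 26.3 and 553 CPM in the 4 sedentary ones. The part of these cells in the differences of the granule cell genes was not tested.

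**Figure D2:**
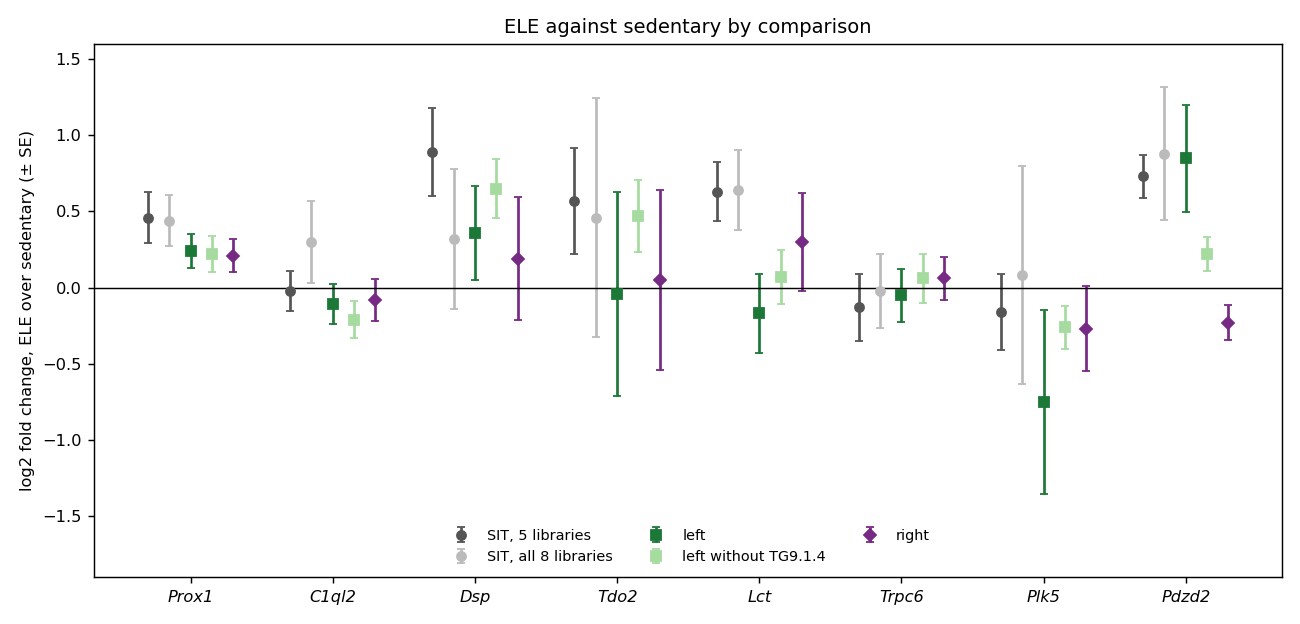
Log2 fold change of ELE over sedentary mice (vertical axis, with SE as bars) for each gene in the SIT, left and right comparisons, with SIT over all 8 libraries and left without TG9.1.4 beside them. Prox1 was above 0 in all 5 settings, between 0.21 and 0.46, whereas C1ql2 lay below 0 in 4 of them.

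The separately isolated libraries were not used to choose the genes and allow a test. In the left hippocampus Prox1 was at 118, 144 and 154 CPM in ELE mice and at 109, 132 and 111 CPM in sedentary mice. The ELE values were the higher ones, but the groups overlapped. Means of 139 ± 18.5 and 117 ± 12.9 CPM (SD, n = 3 each) gave a log2 fold change of 0.24 ± 0.114 (edgeR quasi-likelihood adjusted p = 0.960), with an interval of 2 SE from 0.01 to 0.47. In the right hippocampus Prox1 was at 151, 143 and 154 CPM in ELE mice and at 146, 111 and 132 CPM in sedentary mice. The groups overlapped through 1 sedentary mouse, TG7.3.3. Means of 149 ± 5.92 and 130 ± 17.3 CPM gave a log2 fold change of 0.21 ± 0.108 (edgeR adjusted p = 1), with an interval from -0.01 to 0.42. The exact two-sided permutation test gave p = 0.20 on each side, where 3 against 3 mice cannot go below 0.10. Markers of other cells also differed on the right, where 2.00% of all genes were called. All 4 choroid plexus genes tested were called lower in ELE mice, as were 3 of 4 hemoglobin genes. Cldn5 of blood endothelium and Cx3cr1 of microglia were called lower too, and Slc32a1 of interneurons higher. None of them passed adjustment over all genes. Summed choroid plexus genes were at 17.3 to 43.0 CPM in right ELE mice and at 35.1, 84.4 and 1156 CPM in right sedentary mice. Summed blood endothelium genes were at 23.8 CPM in the sedentary TG7.3.3 and at 1.45 and 2.89 CPM in the other right sedentary mice. The part of these cells in the Prox1 values was not tested.

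Over both hemispheres together, Prox1 averaged 144 ± 13.6 CPM in 6 ELE mice and 123 ± 15.3 CPM in 6 sedentary mice (log2 fold change 0.22 ± 0.0787, interval 0.07 to 0.38, edgeR adjusted p = 0.902). This fold of 1.17 was under the limit of 1.3, so Prox1 was not called although its unadjusted p was under 0.05, and it did not pass adjustment over all genes. Without TG9.1.4 the log2 fold change was 0.21 ± 0.0824 (edgeR adjusted p = 0.902). The exercise difference in Prox1 was not distinguishable between left and right (difference 0.04 ± 0.163, interval -0.29 to 0.36, edgeR adjusted p = 1).

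Neither Prox1 nor any of the other 7 genes was called in both hemispheres. Of the 8 genes, 1 was called in the left (Pdzd2), where 2.12% of all genes were, and 0 in the right, where 2.00% were. In the 2 hemispheres together 0 of 8 were called, where 2.00% of all genes were. At an unadjusted p under 0.05 alone, 0 of 8 passed on the right and 1 (Prox1) over both hemispheres, and DESeq2 called 0 of 8 in the left, the right and both together. The median log2 fold change of the 8 genes was -0.05 in the left, 0.05 in the right and 0.03 over both, against medians within 0.01 of 0 over all genes. With edgeR, 0 genes of the whole table passed an adjusted p of 0.05 in the left (699 at an unadjusted p under 0.05, and 3 by DESeq2), and 0 in the right (488, and 13 by DESeq2).

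Pdzd2 in the left hippocampus was at 39.6, 100 and 35.4 CPM in ELE mice and at 29.9, 36.1 and 31.1 CPM in sedentary mice. The high value was TG9.1.4, and the other ELE values overlapped the sedentary ones. The log2 fold change was 0.85 ± 0.351 (edgeR adjusted p = 0.960), and without TG9.1.4 it was 0.22 ± 0.110 (edgeR adjusted p = 0.856). In the right hippocampus Pdzd2 was at 38.7, 30.4 and 34.3 CPM in ELE mice and at 41.1, 43.1 and 36.9 CPM in sedentary mice, a lower level in ELE (log2 fold change -0.23 ± 0.115, edgeR adjusted p = 1). The difference between the 2 exercise effects was 1.07 ± 0.406 (edgeR adjusted p = 1). It was called, as 1 of the 8 genes where 2.21% of all genes were, and did not pass adjustment. Without TG9.1.4 it was 0.45 ± 0.165 (edgeR adjusted p = 1).

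Dsp was at 27.5, 12.7 and 26.7 CPM in left ELE mice and at 15.8, 23 and 13.5 CPM in left sedentary mice, with the ELE library TG9.1.4 lowest. The log2 fold change was 0.36 ± 0.307 with it and 0.65 ± 0.193 without it (edgeR adjusted p = 0.856), where the groups no longer overlapped and Dsp was called. In that setting 2.98% of all genes were called, and the groups did not overlap for 9.68% of them upward. On the right, Dsp was at 35.5, 24 and 24.1 CPM in ELE mice and at 40.2, 9.03 and 24 CPM in sedentary mice, and the sedentary spread enclosed the ELE values (log2 fold change 0.19 ± 0.406).

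Plk5 was the gene with the largest downward value in both hemispheres, without passing the test in either. It was at 21.0, 2.97 and 28.4 CPM in left ELE mice and at 30.3, 32.6 and 26.2 CPM in left sedentary mice (log2 fold change -0.75 ± 0.604). TG9.1.4 was again the low one, and without it the value was -0.26 ± 0.142. On the right it was at 21.7, 16.6 and 16.7 CPM in ELE mice and at 30.7, 12.1 and 23.4 CPM in sedentary mice (log2 fold change -0.27 ± 0.278), with the sedentary mouse TG9.1.1 lowest. Leaving out 1 library at a time gave values from -0.57 without TG9.1.1, where Plk5 was past the threshold, to 0.05 without TG7.3.3.

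The remaining genes differed by less than the spread between mice. C1ql2 was between 204 and 279 CPM in left ELE mice and between 225 and 298 CPM in left sedentary mice (log2 fold change -0.11 ± 0.132). On the right it was between 194 and 247 CPM in ELE mice and between 195 and 276 CPM in sedentary mice (log2 fold change -0.08 ± 0.138). Lct had a log2 fold change of -0.17 ± 0.261 on the left and 0.30 ± 0.322 on the right, and it was called on the right when TG7.3.3, the highest sedentary mouse at 78.8 CPM, was left out (log2 fold change 0.80), while without TG9.1.1 the log2 fold change was -0.01. Tdo2 had -0.04 ± 0.671 and 0.05 ± 0.592, and Trpc6 had -0.05 ± 0.173 and 0.06 ± 0.141.

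None of the 8 genes was called between left and right, where 1.15% of all genes were (Prox1: 128 ± 18.4 CPM left and 139 ± 15.8 CPM right, log2 fold change -0.12 ± 0.0787). Between SIT (the 5 libraries compared) and separate isolation, values are given without a test, since the SIT ELE libraries also served to select Prox1. Prox1 was at 170 ± 42.2 CPM in the 5 SIT mice and at 134 ± 17.4 CPM in 12 separately isolated mice (log2 fold change 0.32 ± 0.0926). Pdzd2 was lower in SIT, at 28.5 ± 7.63 against 41.4 ± 19.0 CPM (log2 fold change -0.59 ± 0.207), but over all 8 SIT libraries its log2 fold change was -0.00. For Tdo2 the log2 fold change was 0.97 ± 0.395 with 5 and 0.58 with 8 SIT libraries. Pdzd2 and Tdo2, 2 of the 8 genes, lay past the threshold where 15.0% of all genes did, and nothing is read from that count.

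A further 12 genes of granule cells (Calb1, C1ql3, Stxbp6, Dock10, Glis3, Rfx3, Sema5a, Igfbp5, Fam163b, Tiam1, Bcl11b and Marcks) were read in the same way. Calb1 is the calcium buffer calbindin, and Rfx3 and Bcl11b are transcription factors. In SIT, 10 of the 12 were above 0 and 2 below, where 50.2% of all genes were above 0, with a median log2 fold change of 0.23. Rfx3 alone lay past the threshold, where 3.73% of all genes did (129 ± 21.1 against 84.9 ± 3.86 CPM, log2 fold change 0.60 ± 0.137). Over all 8 libraries 8 were above 0 and 4 below, where 50.7% of all genes were above 0. There 0 lay past the threshold, where 7.84% of all genes did, and the median was 0.05. Of these 12, 0 were called in the left, where 2.12% of all genes were (7 above 0, 5 below, median 0.02, with 50.9% of all genes above 0).

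In the right, 5 of the 12 were above 0 and 7 below (median -0.01, with 48.7% of all genes above 0). There 2 were called, in opposite directions, where 2.00% of all genes were. Fam163b was higher in ELE mice (587 ± 81.8 against 435 ± 98.6 CPM, log2 fold change 0.44 ± 0.159, edgeR adjusted p = 1). Dock10, which activates small GTPases, was lower (26.9 ± 5.82 against 39.6 ± 9.58 CPM, log2 fold change -0.56 ± 0.197, edgeR adjusted p = 1). Over both hemispheres 0 of the 12 were called, where 2.00% of all genes were. Between the isolations, again as a description, the log2 fold change of SIT over separate isolation was 0.69 for Calb1, 0.76 for C1ql3, 0.69 for Stxbp6 and 0.49 for Rfx3. These were the 4 of the 12 past the threshold, where 15.0% of all genes were.

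Markers of the other excitatory cells were read beside them. Past the threshold lay 3.73% of all genes in the 5 SIT libraries and 7.84% in all 8. The share was 2.00% in the right and 2.00% over both hemispheres. In SIT, 0 of 5 CA1 pyramidal genes were above 0 (median -0.12, 0 past the threshold, and 2 of 5 above 0 over all 8 libraries), 4 of 6 CA2 and CA3 genes were above 0, with Cacng5 past the threshold, and so were 4 of 6 genes of progenitors and immature neurons, with 0 past it. Of 4 genes of mossy cells, the other excitatory neurons of the dentate gyrus, 2 were above 0 and 2 below, and Calb2, calretinin, was lower past the threshold (32.5 ± 5.52 against 49.0 ± 1.14 CPM, log2 fold change -0.59 ± 0.15). Over all 8 libraries 4 of 4 were below 0 and 2 past the threshold. The summed mossy cell genes did not overlap between the groups, at 32 to 47.4 CPM in ELE and 50.2 to 58.1 CPM in sedentary libraries. Of all genes taken singly, 2.49% did not overlap downward in these libraries. The part of mossy cells in the granule cell values was not tested. In the right hippocampus 2 of the 6 CA2 and CA3 genes were called in opposite directions, Bok higher (188 ± 10.8 against 143 ± 13.9 CPM, log2 fold change 0.40 ± 0.0950, edgeR adjusted p = 1) and Amigo2 lower (17.8 ± 4.61 against 24.8 ± 2.99 CPM, log2 fold change -0.48 ± 0.188, edgeR adjusted p = 1). Over both hemispheres Drd2 of the mossy cell list was called higher (2.28 ± 0.336 against 1.63 ± 0.386 CPM, log2 fold change 0.49 ± 0.195, edgeR adjusted p = 0.902). Other cells that use Prox1 were read too. Summed markers of caudal ganglionic eminence interneurons were between 24.9 and 34.7 CPM in SIT ELE libraries. In SIT sedentary libraries they were at 35.2 and 32.2 CPM in the pair compared, and at 133 and 121 CPM in NT7.2.3 and NT7.2.4. Their median log2 fold change was -0.16 over the 5 libraries. Over all 8, which bring in NT7.2.3 and NT7.2.4, that median was -1.56, with 5 of 5 genes lower past the threshold. Summed markers of lymphatic endothelium were between 8.72 and 13.6 CPM in SIT ELE and between 9.79 and 16.5 CPM in SIT sedentary libraries. Most of that sum was Pdpn, with a median of 11.8 CPM over the 20 libraries, against 0.252 CPM for Lyve1. Of the 3 genes in this list, 2 were tested. Both were above 0 over the 5 libraries (median 0.09) and below 0 over all 8 (median -0.29), with 0 past the threshold in either. Flt4 was at or under 3 counts in 15 of 20 libraries.

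Whether Prox1 moved with the other granule cell genes was then asked across libraries, as correlations of log2 CPM (pseudocount 0.5). Values that hold the SIT groups without subtraction of their means are descriptions, since those groups chose Prox1, and the others have permutation p-values adjusted over the 7 genes. Over the 20 libraries Plk5 had the most negative value (Pearson r = -0.42, Spearman rho = -0.26) and Pdzd2 the most positive (r = 0.40, rho = 0.19). The other 5 had r between -0.17 (Trpc6) and 0.07 (Lct). The 2 libraries farthest from the median of Prox1 were NT6.304 and TG7.4.1, and without them r was -0.30 for Plk5 and 0.07 for Pdzd2, so the relation with Pdzd2 rested on those libraries.

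**Figure D3:**
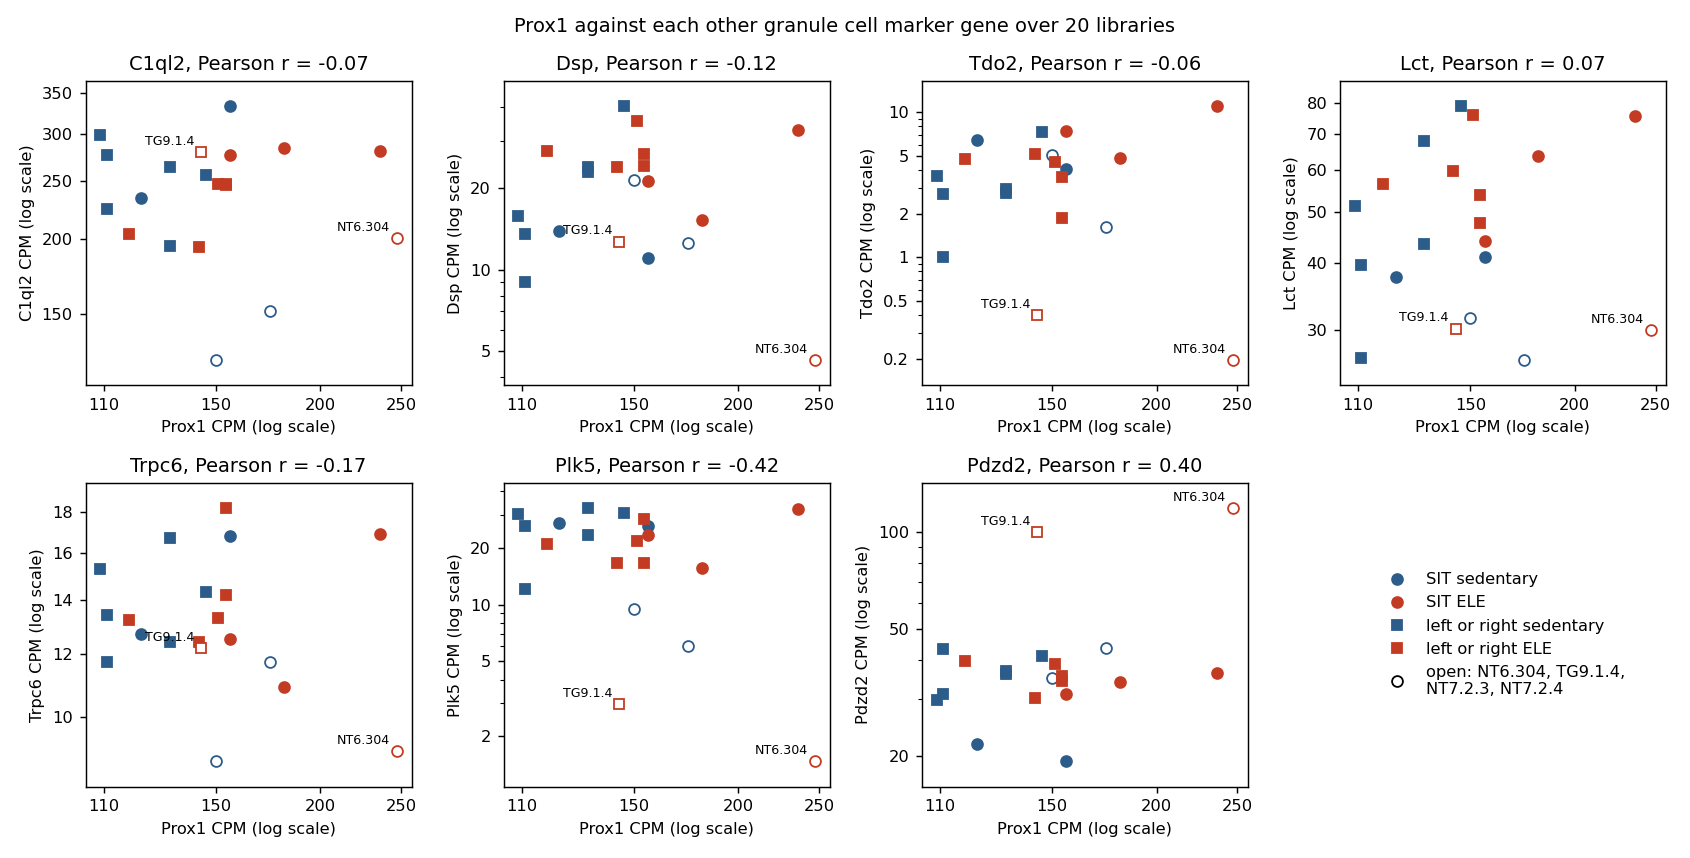
Each gene's level in CPM (vertical axis, log scale) against that of Prox1 (horizontal axis, CPM, log scale) in the 20 libraries, with Pearson's r over all of them. Circles are SIT and squares separately isolated libraries, red ELE and blue sedentary, and open symbols mark the 4 libraries that stand apart. NT6.304 has the highest Prox1 level and the lowest Dsp, Tdo2 and Plk5 levels.

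Values within each isolation stand beside the pooled ones, since the SIT and separately isolated libraries were made differently. In the 8 SIT libraries Pdzd2 had r = 0.75 and rho = 0.71. In the 12 separately isolated libraries Dsp had r = 0.63 (permutation p = 0.0302, adjusted p = 0.211) and rho = 0.59 (p = 0.0485, adjusted p = 0.339), and Pdzd2 had r = 0.22. Without TG9.1.4, Dsp in the remaining 11 had r = 0.76 (permutation p = 0.00451, adjusted p = 0.0316) and rho = 0.69 (p = 0.0220, adjusted p = 0.154). Pearson's r of Dsp passed adjustment in this setting alone, which was chosen after the data were seen, and its rank correlation did not.

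With each group's mean subtracted, which removes the differences of exercise, hemisphere and isolation, r was 0.51 for Pdzd2 and lay between -0.32 (Plk5) and 0.18 (Trpc6) for the other 6, and none passed (smallest adjusted p = 0.740). In the 16 libraries that do not stand apart, without subtraction, Tdo2 had r = 0.57 (rho = 0.47) and Lct had r = 0.55 (rho = 0.38). Both values were larger than those over 20 libraries, where r was -0.06 for Tdo2 and 0.07 for Lct.

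Several of the other marker genes varied together. After subtraction of the group means over 20 libraries, r was 0.88 for Dsp with Tdo2, 0.82 for Dsp with Lct, 0.82 for Tdo2 with Lct and 0.91 for Tdo2 with Plk5. Without NT6.304 and TG9.1.4 the same pairs had 0.73, 0.73, 0.75 and 0.70. Dsp with Plk5 went from 0.75 over 20 libraries to 0.40 over 18. C1ql2 and Trpc6 had 0.66 and 0.72, and Trpc6 had 0.73 and 0.69 with Plk5 and 0.61 and 0.45 with Lct. Pdzd2 had -0.94 with Plk5 over 20 libraries and -0.74 over 18, and -0.82 and -0.34 with Tdo2. In the 11 separately isolated libraries without TG9.1.4 neither opposition was seen, with -0.05 for Plk5 and -0.16 for Tdo2. Prox1 over 20 libraries had 0.51 with Pdzd2 and -0.32 to 0.18 with the other 6. Over 18 it had 0.50 with Dsp, 0.50 with Trpc6, 0.45 with Lct and 0.38 with Pdzd2, but 0.05 with Tdo2, 0.05 with Plk5 and -0.08 with C1ql2. In the 11 separately isolated libraries without TG9.1.4 it had 0.89 with Trpc6, 0.80 with Plk5, 0.71 with Dsp and 0.63 with Lct, and 0.33 with Tdo2, 0.14 with C1ql2 and 0.04 with Pdzd2. Without the subtraction, r in these 11 was 0.30 for Trpc6, 0.05 for Plk5, 0.76 for Dsp and 0.58 for Lct. It was 0.34 for Tdo2, -0.18 for C1ql2 and 0.11 for Pdzd2. Leaving out TG9.1.4 was chosen after the data were seen. All these values are descriptions over libraries that share depth, dissection and cell composition, which were not separated.

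**Figure D4:**
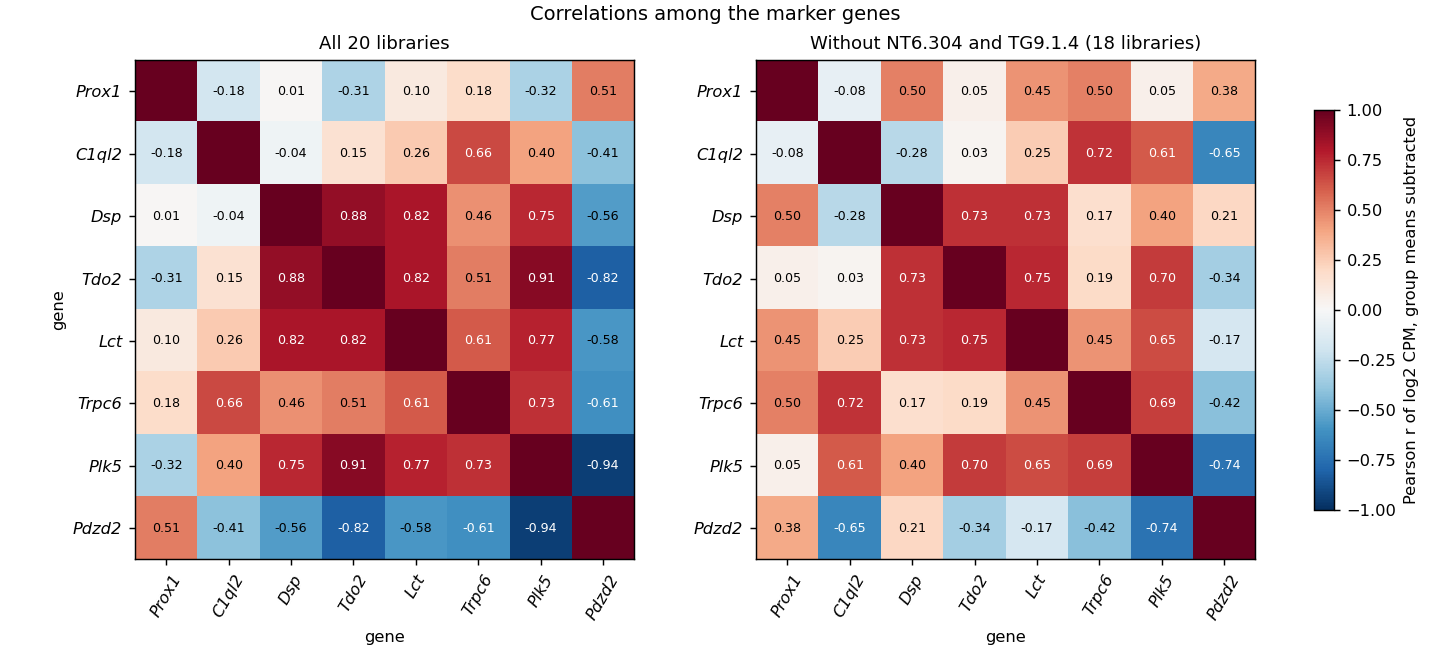
Pearson's r between each pair of the 8 genes (colour scale from -1 to 1) of log2 CPM with group means subtracted, over 20 libraries (left) and without NT6.304 and TG9.1.4 (right). Dsp, Tdo2, Lct and Plk5 form a block of positive values from 0.75 to 0.91 on the left, where Prox1 has -0.32 to 0.10 with them; on the right Prox1 has 0.05 to 0.50 with them.

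Likeness to Prox1 was measured for the 14223 genes averaging 1 CPM or more. Among those whose pattern was most like Prox1 with group means subtracted over 20 libraries were Clvs1 (r = 0.90), Scaf11 (0.85) and Dgki (0.84). None of the 3 is in the granule cell lists. Without NT6.304 and TG9.1.4 their r was 0.88, 0.83 and 0.82. The middle 90% of genes lay between -0.54 and 0.59 with a median of 0.02. Of the 7 other marker genes 4 were above 0, with a median of 0.01 and 0 outside those limits, and Pdzd2, the most alike, exceeded 90.6% of genes. Of the 12 further granule cell genes 6 were above 0, with a median of 0.07, 0 above the upper limit and 1 below the lower one (C1ql3, -0.56). These values rested on NT6.304 and TG9.1.4. Without them the limits were -0.55 and 0.61 with a median of 0.00, and 6 of the 7 marker genes were above 0, with a median of 0.38 and 0 outside the limits. Of the 12 further genes 9 were then above 0, with a median of 0.38, and 3 lay above the upper limit: Sema5a (0.87, against -0.07 over 20 libraries), Dock10 (0.73) and Bcl11b (0.62).

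Plk5, Tdo2 and Pdzd2 set NT6.304 and TG9.1.4 apart from the rest. Plk5 was at 1.47 and 2.97 CPM in them and at least 6.00 CPM in the other 18 libraries. Tdo2 was at 0.197 and 0.400 CPM (10 and 21 counts) and at least 0.999 CPM elsewhere. Pdzd2 went the other way, at 119 and 100 CPM, with at most 43.4 CPM elsewhere. Several genes that neuronal activity is known to induce were highest in the same pair. Npy, a neuropeptide, was at 785 and 301 CPM against 0.755 to 79.1 CPM, Penk, which encodes enkephalin, at 690 and 162 CPM against 21.2 to 80.5 CPM, and Inhba, a subunit of activin, at 88.2 and 37.2 CPM against 2.93 to 30.2 CPM. Arc, an immediate early gene, was at 1133 CPM in NT6.304, whereas its 201 CPM in TG9.1.4 lay within the range of the others, 47.7 to 211 CPM. Npas4 and Trh were likewise high in NT6.304 alone, at 139 and 52.7 CPM, with 1.41 and 8.49 CPM in TG9.1.4.

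Prox1 did not separate the pair, with the highest value of the 20 in NT6.304 (247 CPM) and a middle one in TG9.1.4 (144 CPM). C1ql2, at 201 and 279 CPM, lay within the range of the other libraries in both. Both mice were ELE mice, of different mouse numbers and isolations, and the remaining 8 ELE libraries did not share the pattern. Among the other 18 libraries the sedentary TG9.1.1 was next to the pair in Npy (79.1 CPM), Penk (80.5 CPM) and Tdo2 (0.999 CPM), but it had the lowest Arc of all (47.7 CPM). The sedentary NT7.2.3 was next in Plk5 (6.00 CPM), Pdzd2 (43.4 CPM) and Inhba (30.2 CPM).

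**Figure D5:**
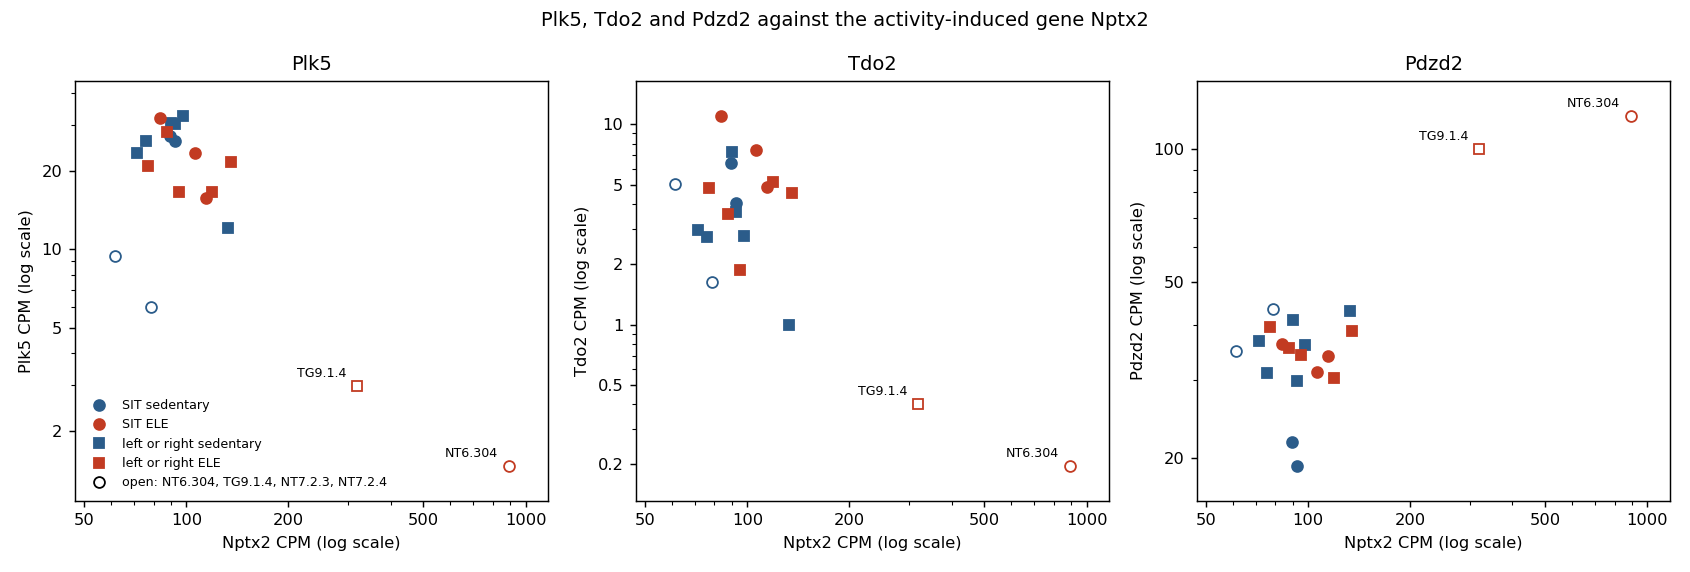
Plk5, Tdo2 and Pdzd2 (vertical axes, CPM, log scale) against Nptx2 (horizontal axis, CPM, log scale) in the 20 libraries, with symbols as for the plots of Prox1. NT6.304 and TG9.1.4, at 892 and 319 CPM of Nptx2, lie apart from the other 18 libraries, at 61.4 to 135 CPM.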

How the data were processed

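TRAP-seq libraries of Emx1-NuTRAP hippocampus were sequenced by the authors, who aligned reads with STAR 2.7.3a to GRCm38.p6, removed duplicates with Picard 1.87, assigned read pairs to genes by their exons, respecting strand (GenomicAlignments), and deposited whole-number counts without normalization. Another 24 columns, of wild-type hippocampus, were not used here, nor were the nuclear data. The deposited columns carry mouse numbers, and their groups follow the study's list of mice. The 3 SIT libraries left out were identified from the mean normalized counts that the study lists.

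From the counts, genes with few counts were removed (filterByExpr), libraries were TMM-scaled and groups were compared with edgeR 4.0.16 (R 4.3.3) by the quasi-likelihood test, fitting the groups compared. Calls follow the study's threshold, an unadjusted p under 0.05 and a fold above 1.3, with Benjamini-Hochberg values beside them; on simulated counts the script was tested first. Single genes were compared with exact permutation tests and correlations with 100000 permutations. DESeq2 1.42.0, other scaling and filters, all 8 SIT libraries, a mouse-number block and leaving out each library were alternatives. The members and lists were chosen with earlier results of these data known. The rule named the 8, called genes of the lists, and the 5 genes most like Prox1, of which some are not reported here. Activity genes, Flt4, Pdpn, Lyve1 and list genes named for their likeness to Prox1 were chosen after their values were seen. Pdzd2 shares sequence on its own strand with 2 other gene models, Gm24135 and F830212C03Rik, so its counts are uncertain to that extent.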

Additional observations from a re-analysis of the deposited data

Results flagged for a closer look

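In the SIT ELE group of 4, the library NT6.304 was far from the other 3 for C1ql2 (201 CPM against 276 to 284 CPM) and for Pdzd2 (119 CPM against 31.3 to 36.3 CPM). These are 2 of 16 groups tested by Dixon's criterion, which chance alone passes in about 1 of 20.

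The difference between the left and right exercise effects lay past the unadjusted threshold for Pdzd2 (difference in log2 fold change 1.07 ± 0.406, edgeR adjusted p = 1) and for Fam163b (-0.59 ± 0.255, edgeR adjusted p = 1), and neither passed adjustment. Without TG9.1.4 it was 0.45 ± 0.165 for Pdzd2, still past that threshold, and -0.43 ± 0.220 for Fam163b, no longer past it. Fam163b also lay past the unadjusted threshold between left and right over all 12 mice (357 ± 58.7 and 511 ± 116 CPM, log2 fold change -0.50 ± 0.148, edgeR adjusted p = 1).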

How the results depend on the processing

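Among values past the threshold in either setting, Dsp in SIT changed direction, to -0.33 in the NT6 mice alone and -0.32 over all 8 SIT libraries with the mouse-number block. Values that did not pass changed sign more often: the median over the 8 genes in SIT went from 0.51 to -0.28 in the NT6 mice, C1ql2 in SIT from -0.02 to 0.30 over all 8 libraries, and Tdo2 in the left lay between -0.61 and 0.47 and Dsp in the right between -0.21 and 0.75 over the fits that leave out 1 library. The count of the 8 genes past the threshold in SIT fell from 4 to 2 with all 8 libraries, with the NT6 mice alone, and with all 8 libraries and the block, where 7.84%, 6.74% and 8.36% of all genes passed. With the block over the 5 libraries it was 3 (Lct, Plk5 and Pdzd2), without Prox1 and with 5.07% of all genes. The left count went from 1 to 0 with DESeq2. Over both hemispheres it went from 0 to 1 without the fold limit (Prox1) and to 1 without the filter (Plk5), and between left and right from 0 to 1 without the filter (Dsp). Between isolations it went from 2 to 4 without the fold limit and to 1 with all 8 SIT libraries, where Prox1 passed the threshold at 0.41. Among correlations with Prox1 the count past an adjusted p of 0.05 was 1 in the separately isolated libraries without TG9.1.4. The cause was not tested. Leaving out 1 library at a time gave counts of 2 to 5 in SIT (1.83% to 6.3% of all genes), 0 to 1 in the left, the right and between sides, 0 over both hemispheres, 1 to 2 for the interaction and 1 to 3 between isolations (14.5% to 16% of all genes). The log2 fold change of Prox1 then lay between 0.28 (without TG7.4.1) and 0.65 (without NT6.306) in SIT, 0.16 and 0.33 in the left, 0.10 and 0.30 in the right, 0.18 and 0.27 over both hemispheres, -0.06 and 0.14 for the interaction, -0.17 and -0.08 between sides, and 0.21 and 0.40 between isolations. Pdzd2 in the left lay between 0.22 (without TG9.1.4) and 1.11. The block uses the first part of the mouse number, since the deposited columns carry no replicate number. It left the counts at 1, 0, 0, 1 and 0 in the left, the right, both hemispheres, the interaction and between sides, and could not be fitted between isolations. Libraries sharing a number part correlated at -0.12 to 0.64 (median 0.04) and 6 of 12 correlated best with their own. Groups of 2 to 4 mice limit the precision of these values.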
